A study of Homo sapiens with 14 samples.

Results

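The comparison asks what a guide RNA does to the transcriptome of cells that already make a hyperactive RNA-editing enzyme. It was made over 8 of the 14 libraries of the series, chosen by their group labels: the 4 with guide (2 of SA1Q+gRNA and 2 of SA2Q+gRNA) and the 4 without (2 of SA1Q and 2 of SA2Q), with the line as a covariate. All 8 came from 293 Flip-In T-REx cells. This is an established line of human embryonic kidney origin with a docking site for 1 transgene, so SA1Q and SA2Q are transgenic lines in 1 genetic background. SA1Q and SA2Q cells carry the SNAP tag fused to the deaminase domain of ADAR or of ADARB1, each with a glutamine in place of a glutamate. The groups differ by transgene and by guide, and the series' design text describes 2 biologically independent experiments. The sources used here give neither the target and dose of the guide nor the induction of the transgene, nor do they say whether cells without guide saw transfection reagent. The effect described is therefore that of the whole guide treatment as the labels name it.

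ADAR enzymes deaminate adenosine to inosine in double-stranded RNA, and inosine is read as guanosine. In a SNAP-ADAR the natural RNA-binding domains are replaced by the SNAP tag, derived from the repair protein MGMT, which bonds covalently to a guide RNA carrying benzylguanine. The guide then pairs with its target and forms the duplex in which the deaminase acts. Introduced RNA can also be sensed by innate receptors, and delivery of nucleic acid can itself set off stress programmes, which is why gene lists for these responses were examined below.

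ADAR and ADARB1, whose transcripts include fragments of the transgenes, separated the lines as labelled. ADAR stood at 1100 and 1090 CPM (counts scaled by edgeR's TMM factors to the usual CPM, the scale of every level below) in SA1Q and at 1330 and 1140 CPM in SA1Q+gRNA. In SA2Q it stood at 331 and 314 CPM, and in SA2Q+gRNA at 310 and 297 CPM. ADARB1 stood at 1080 and 943 CPM in SA2Q and at 1160 and 1160 CPM in SA2Q+gRNA, against 28.8 to 32.5 CPM in the 4 SA1Q libraries. With against without guide, ADAR differed by 0.04 ± 0.07 (log2, SE; 95% interval -0.10 to 0.19) and ADARB1 by 0.07 ± 0.07 (-0.08 to 0.22). Each of these averages over the line that lacks the transgene of that enzyme. Within the line that carries it, ADAR differed by 0.17 ± 0.08 in SA1Q (edgeR adjusted p = 0.367; 0.05 ± 0.06 without SA1Q+gRNA replicate 1) and ADARB1 by 0.20 ± 0.08 in SA2Q (adjusted p = 1; 0.20 ± 0.06 and 0.718 in the fit without that library). None passed the adjusted threshold. Of the markers listed for the kidney line, KRT8 (232 to 332 CPM), KRT18 (115 to 148 CPM) and VIM (967 to 1290 CPM) were high in all 8 libraries. INA stood at 59.7 to 76.7 CPM. The others were low, with EYA1 at 6.29 to 9.01 CPM, LHX1 at 2.33 to 3.7 CPM, PAX2 at 2.33 to 3.64 CPM and NEFM at 0.82 to 1.48 CPM. Of markers of other cells, PTPRC and CD14 of blood reached at most 0.302 and 0.82 CPM, and DCN and COL3A1 of fibroblasts at most 0.08 and 1.09 CPM, while COL5A1, also a fibroblast marker, stood at 10.7 to 17.5 CPM. The summed level of the 14 fibroblast markers was 125 to 146 CPM with guide and 118 to 160 CPM without, and that of the 11 blood markers 126 to 184 and 134 to 183 CPM. Most of each sum came from members not named here, so the low levels of PTPRC, CD14, DCN and COL3A1 do not stand for their lists. The part of these markers in the results was not tested.

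Library totals were 43.0 to 68.2 M fragments, and 15879 genes had enough counts to test. One library stood apart: on the first principal component, with 38.7% of the variance, SA1Q+gRNA replicate 1 lay at 24.9 and the other 7 between -13 and 3. The second component, with 30.6%, separated the lines. Between single libraries with against without guide, the SD of the log2 difference over 13713 genes of at least 1 CPM was 0.137 to 0.148 in SA2Q, against 0.126 and 0.13 between the libraries of a group. In SA1Q it was 0.281 and 0.331 for pairs that hold SA1Q+gRNA replicate 1 and 0.135 and 0.173 for the other pairs, against 0.171 between the 2 SA1Q libraries. A library with guide thus lay about as far from one without as replicates lay from each other, apart from that library. Counts over all genes in the pooled effect, gene lists and the genes described at length are given below with and without it.

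**Figure D1:**
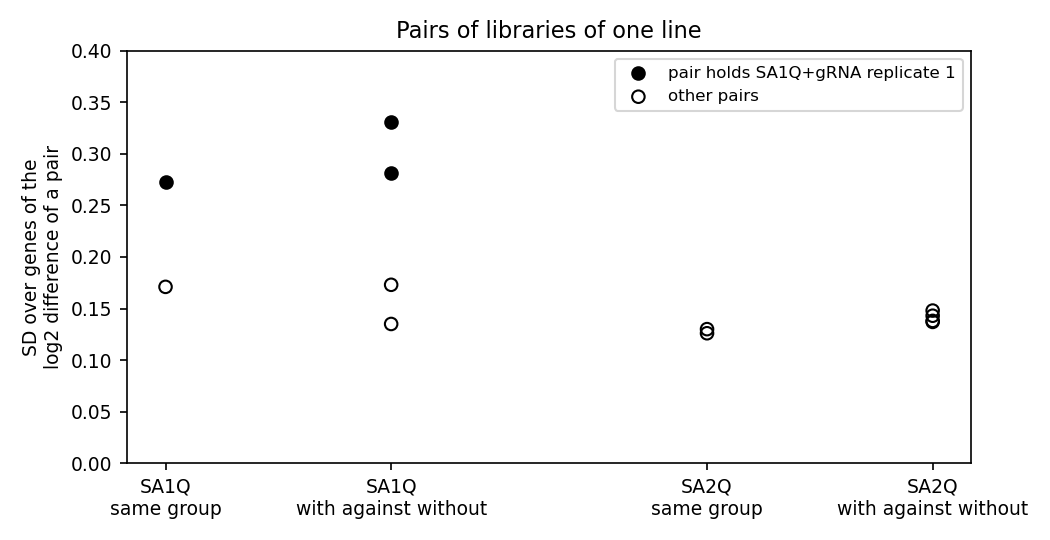
Each point is a pair of libraries of 1 line, with the SD over 13713 genes of the log2 difference of the pair on the vertical axis, and pairs of the same group or with against without guide on the horizontal axis. Filled points hold SA1Q+gRNA replicate 1 and reach from 0.273 to 0.331, while the open points stay between 0.126 and 0.173.

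No transcript passed the test for a change with guide over the 8 libraries. Of 15879 genes, 0 passed an adjusted p of 0.05 (percent called 0), and the smallest adjusted p was 0.779 (edgeR quasi-likelihood test, two-sided, Benjamini-Hochberg). At an unadjusted p under 0.05 there were 900 genes (5.67%), 526 higher (3.31%) and 374 lower (2.36%), where 794 would come by chance. limma-voom called 0 genes and DESeq2 called 1, NEAT1 (adjusted p = 0.0115). The bounds that this places on the response are narrow for most transcripts. The 95% interval of the change lay within 2-fold either way for 15038 genes (94.7%) and within 1.5-fold for 84.9%. For the 7894 genes of 10 to 100 CPM the median half-width of the interval was 0.163 (1.12-fold), and for the 2329 above 100 CPM it was 0.129 (1.09-fold). For the 2114 genes under 1 CPM it was 0.662 (1.58-fold), and the 34 genes with a fitted change above 2-fold were all in this class. These intervals are not adjusted for the number of genes tested. At this depth and with 5 residual degrees of freedom, changes within those bounds were not detectable, and larger ones could also miss the adjusted threshold. NEAT1 differed by 0.34 (95% interval 0.21 to 0.48) with an edgeR adjusted p of 0.779.

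With SA1Q+gRNA replicate 1 left out, 16100 genes were tested and 1 (0.00621%) was called, RNA45SN5, which fell. Changes above 0 numbered 7750 (48.1%). At an unadjusted p under 0.05 there were 839 genes (5.21%), 459 higher (2.85%) and 380 lower (2.36%). The common biological coefficient of variation was 5.6% without that library and 8.4% with it, and the median half-width of the interval went from 0.186 to 0.146.

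**Figure D2:**
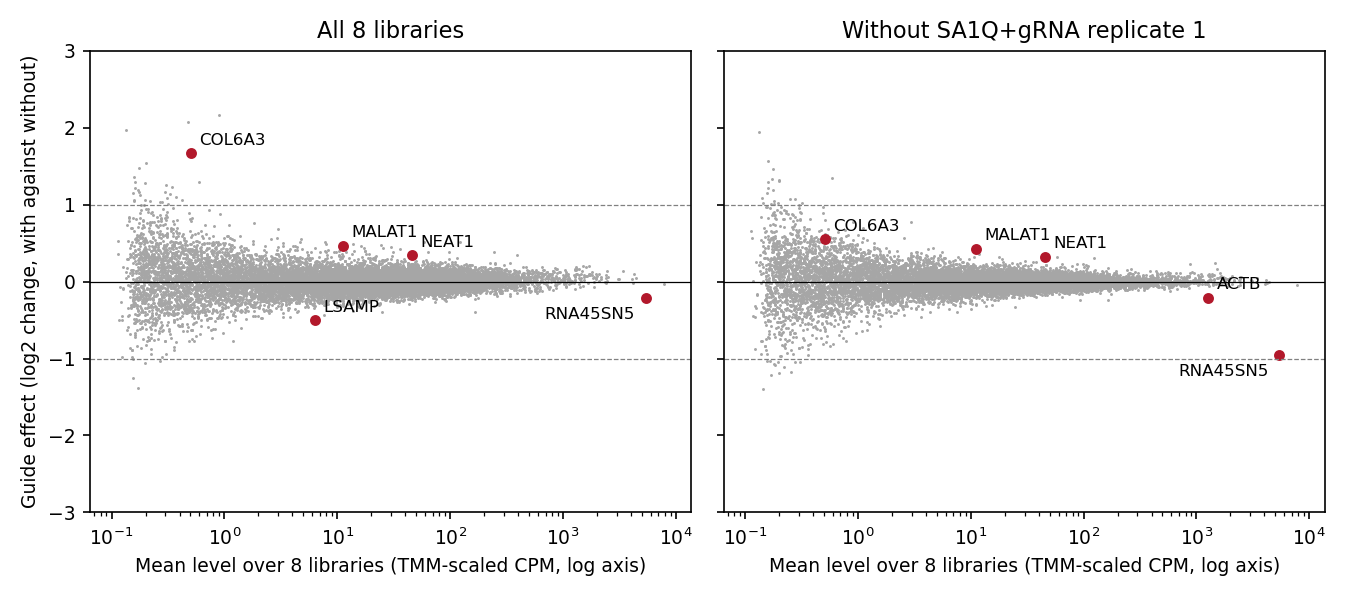
Each grey point is a gene, with its mean level over the 8 libraries in TMM-scaled CPM (log axis) on the horizontal axis and the log2 change with against without guide on the vertical axis, over 8 libraries on the left and without SA1Q+gRNA replicate 1 on the right. Dashed lines mark a 2-fold change; NEAT1 lies at 0.34 and 0.33, and RNA45SN5 moves from -0.21 to -0.96.

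NEAT1 had the smallest p among transcripts higher with guide that averaged at least 1 CPM in those libraries. It is the long noncoding RNA that scaffolds paraspeckles, and the entry measured (chr11:65190269-65194003, hg19, plus strand, exonic throughout) spans the region of its short polyadenylated isoform. Its level was 35.1 and 33.7 CPM in SA1Q and 45.7 and 44.0 CPM in SA1Q+gRNA, 46.9 and 46.3 CPM in SA2Q and 61.6 and 53.5 CPM in SA2Q+gRNA. Each library with guide lay above both libraries without in its own line. The change was 0.34 ± 0.06 (log2, SE; 1.27-fold; 95% interval 0.21 to 0.48; edgeR adjusted p = 0.779). In the 7 libraries without SA1Q+gRNA replicate 1 it was 0.33 ± 0.06 (adjusted p = 0.218), with 0.35 in SA1Q and 0.31 in SA2Q. Over 21 alternatives the NEAT1 change stayed between 0.29 and 0.39, with adjusted p from 0.0115 to 0.967, so the tools and settings divided on the call and not on the size.

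MALAT1, the nuclear-speckle RNA that neighbours NEAT1 (chr11:65265233-65273939, plus strand), stood at 9.76 and 9.67 CPM in SA1Q and 14.4 and 12.7 CPM in SA1Q+gRNA, 10.3 and 7.95 CPM in SA2Q and 13.5 and 11.5 CPM in SA2Q+gRNA. Its values with guide again lay above those without in each line, a difference of 0.47 ± 0.10 (log2, SE; 1.38-fold; adjusted p = 0.779, edgeR) and of 0.43 ± 0.09 in the 7 libraries (0.465). SNHG12, a host of small nucleolar RNAs (chr1:28905050-28908366, minus strand), stood at 17 and 16.2 CPM in SA1Q and 22.8 and 19.9 CPM in SA1Q+gRNA, 14.2 and 15.1 CPM in SA2Q and 20.2 and 17.6 CPM in SA2Q+gRNA. The groups did not overlap within a line, and the difference was 0.36 ± 0.08 (log2, SE; 1.28-fold) and 0.32 ± 0.07 in the 7 libraries. SNHG12 lies antisense to TRNAU1AP, and whether the counting used strand is unknown here, so its reads and those of its neighbour cannot be told apart with certainty. The same holds for the remaining 3 of the 6 higher genes of smallest p, MMADHC-DT (log2 0.88), RALY-AS1 (0.74) and SERTAD4-AS1 (0.46), each antisense to the gene in its name (0.78, 0.70 and 0.43 in the 7 libraries). MMADHC-DT and RALY-AS1 averaged over 1 CPM, the level required of a named gene, only in the libraries with guide.

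Groups that do not overlap in either line and lie in the same direction were found for 714 genes higher with guide (4.5%) and 508 lower (3.2%), and without SA1Q+gRNA replicate 1 for 1055 (6.55%) and 837 (5.2%). These shares are the background against which such a pattern in a single gene should be read.

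The 6 genes of smallest p among those lower with guide came from unrelated functions. LSAMP, a cell-surface adhesion protein of the nervous system (chr3:115521210-116164385, minus strand), stood at 6.83 and 8.22 CPM in SA1Q and 3.57 and 5.61 CPM in SA1Q+gRNA, 7.14 and 7.78 CPM in SA2Q and 5.84 and 6.09 CPM in SA2Q+gRNA. All 4 values with guide were under all 4 without, a difference of -0.50 ± 0.14 (log2, SE; 95% interval -0.79 to -0.20; edgeR adjusted p = 0.779), and -0.36 without SA1Q+gRNA replicate 1, the library with the lowest value. NDRG1, a hypoxia-responsive gene, stood at 78.8 and 94.5 CPM in SA1Q and 70.8 and 75.5 CPM in SA1Q+gRNA, 105 and 124 CPM in SA2Q and 92.5 and 99.0 CPM in SA2Q+gRNA, a difference of -0.25 ± 0.07 (-0.24 ± 0.07 in the 7 libraries). The copper transporter ATP7B (-0.21, and -0.19 in the 7 libraries), the kinase gene CDC42BPG (-0.39 in both), CDIN1 (-0.25 and -0.24) and C10orf55 (-0.67 and -0.66, antisense to PLAU, and over 1 CPM on average only without guide) made up the rest, and LSAMP, CDIN1 and C10orf55 each overlap a gene on the other strand. None of these 6 passed the adjusted threshold in the edgeR fit to either set of libraries.

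**Figure D3:**
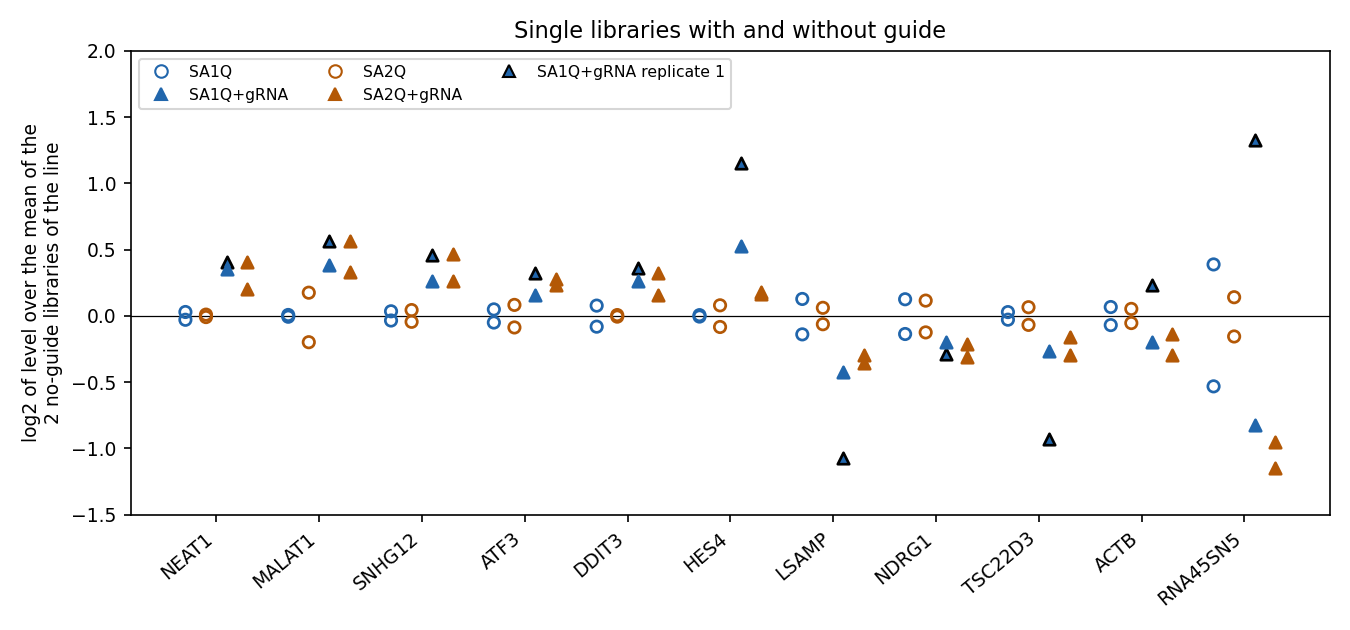
For 11 transcripts, each symbol is 1 library, plotted as the log2 of its level over the mean of the 2 no-guide libraries of its line; circles are libraries without guide, triangles with guide, and black-edged triangles SA1Q+gRNA replicate 1. NEAT1, MALAT1 and SNHG12 have all 4 triangles above the circles of their line, while for RNA45SN5 and ACTB the black-edged triangle lies on the other side of 0 from the other 3.

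For RNA45SN5 the pooled result turned on SA1Q+gRNA replicate 1. RNA45SN5 is the precursor of the ribosomal RNAs, has no poly(A) tail, and lies in many near-identical copies; the entry measured is on an unplaced contig of hg19 (Un_gl000220, 105424 to 118780, plus strand). It stood at 3330 and 6300 CPM in SA1Q, 5660 and 6950 CPM in SA2Q, 2850 and 3260 CPM in SA2Q+gRNA, and 12100 and 2720 CPM in SA1Q+gRNA. With guide, 3 libraries lay below every library without, and the fourth above them all. Over 8 libraries the difference was -0.21 ± 0.42 (log2, SE; edgeR adjusted p = 0.899). Leaving out SA1Q+gRNA replicate 1, it fell by 0.96 (log2) with an SE of 0.14 (edgeR adjusted p = 0.0498). In that fit the adjusted p ran from 4.31e-12 to 0.999 over the alternatives, and DESeq2 (0.512) and limma-voom (0.147) did not call it. Its level is uncertain, since how fragments that match several copies were counted is unknown here. The libraries were also selected for poly(A), and how much of this tailless transcript passed that selection in each library was not tested.

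The other genes of smallest p without SA1Q+gRNA replicate 1 included MALAT1, SNHG12 and LSAMP again. The transcriptional repressor gene HES4 stood at 94.2 and 93.5 CPM in SA1Q and 209 and 135 CPM in SA1Q+gRNA, 112 and 100 CPM in SA2Q and 119 and 120 CPM in SA2Q+gRNA. Its difference was 0.31 ± 0.06 without that library (log2, SE; edgeR adjusted p = 0.341) and 0.52 ± 0.15 with it (0.779).

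NDUFAF8, an assembly factor of respiratory complex I, differed by 0.52 ± 0.14 (log2, SE) over 8 libraries and 0.32 ± 0.06 over 7. Among lower genes, TSC22D3, a glucocorticoid-induced leucine zipper gene, stood at 173 and 180 CPM in SA1Q and 92.7 and 147 CPM in SA1Q+gRNA, 186 and 204 CPM in SA2Q and 159 and 175 CPM in SA2Q+gRNA. The difference was -0.39 ± 0.12 over 8 libraries and -0.24 ± 0.05 over 7. DESeq2 called NEAT1, HES4, NDUFAF8 and TSC22D3 over the 7 libraries (adjusted p 0.00464 to 0.0304). The edgeR fit with the filter on low counts called none of these 4, and called all 4 with no filter (0.0239 to 0.0326) and with SA1Q replicate 1 also left out.

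ACTB and GAPDH, common reference genes, and GUSB are transcripts to which guides have been directed in work with SNAP-ADARs. ACTB stood at 1210 and 1330 CPM in SA1Q, 1490 and 1110 CPM in SA1Q+gRNA, 1400 and 1300 CPM in SA2Q, and 1100 and 1230 CPM in SA2Q+gRNA. The 3 libraries with guide other than SA1Q+gRNA replicate 1 lay under those without guide of their line, and that library lay above them. The difference was -0.09 ± 0.09 (log2, SE) over 8 libraries and -0.21 ± 0.05 over 7 (edgeR adjusted p 0.806 and 0.465). Over the 7 libraries edgeR called ACTB lower with no filter on low counts (-0.21; adjusted p = 0.0279) and with SA1Q replicate 1 also left out (-0.23; 0.0235). GAPDH differed by 0.03 (95% interval -0.09 to 0.16) and turned to -0.03 in the 7 libraries, and GUSB differed by 0.13 (-0.00282 to 0.26) and by 0.08. Both ACTB and GAPDH have many processed pseudogenes. MGMT, the source of the SNAP tag, differed by 0.01 (-0.25 to 0.27) and by -0.14 in the 7 libraries.

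The main edgeR fit to the 8 libraries called no member of any list. Of list members, DESeq2 called NEAT1, as did edgeR with an offset for length and GC content, and that offset with a replicate block also called MALAT1 and NDRG1. With SA1Q+gRNA replicate 1 and SA1Q replicate 1 both left out, edgeR called these 3 and GAS5 (0.28; adjusted p = 0.0235), among others. The lists are described by their counts and medians beside those of all genes tested, of which 8027 (50.6%) lay above 0 with a median change of 0.002. The 27 lists held 623 genes of the table, of which 566 were tested and 57 lay under the filter on low counts. The genes of the interferon response were spread on both sides of 0. Of 40 interferon-stimulated genes 31 were tested, 16 above 0 and 15 below, with a median of 0.00 and 1 at an unadjusted p under 0.05 (PARP14, -0.23). In the 7 libraries 14 of 32 lay above 0, with a median of -0.03. ISG15, the ubiquitin-like interferon marker, differed by 0.16 and IFIT1, which binds foreign RNA, by 0.09. Members that averaged 1 CPM or less differed more, with MX1 at 0.38, IFIT2 at 0.44, IFIT3 at 0.23 and PSMB9 at -0.24. In the 7 libraries these were 0.39, 0.43, 0.29 and -0.24. MX1 differed by 0.74 in SA1Q and 0.09 in SA2Q. Of 28 nucleic acid sensors and cytokines only 16 reached the filter, 9 above 0, with a median of 0.04 (12 of 18 and 0.05 in the 7 libraries). Only 1 of the 16 was at an unadjusted p under 0.05, NFKBIA (0.17, and 0.15 in the 7 libraries). Over the 8 libraries NFKBIA differed by 0.06 in SA1Q and 0.28 in SA2Q. IFIH1, a sensor of long double-stranded RNA, differed by -0.01 and RIGI, a sensor of RNA ends, by -0.12.

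Immediate early genes, which are transcribed within minutes of a stimulus, leaned to the higher side. Of 30 tested, 28 lay above 0, with a median of 0.12, and 7 were at an unadjusted p under 0.05, all higher, against 3.31% of all genes. In the 7 libraries 27 lay above 0, with a median of 0.09, and the medians within the lines were 0.08 in SA1Q and 0.11 in SA2Q. The 7 were FOSL2 (0.28), DUSP1 (0.23), CCN2 (0.55), JUN (0.19), EGR4 (1.28), CCN1 (0.45) and KLF4 (0.26). Without SA1Q+gRNA replicate 1 these values were 0.21, 0.18, 0.33, 0.13, 1.31, 0.22 and 0.18, in that order. CCN1 stood at 50.4 CPM in that library. The AP-1 gene JUN stood at 387 and 433 CPM in SA1Q and 518 and 443 CPM in SA1Q+gRNA, 427 and 408 CPM in SA2Q and 459 and 466 CPM in SA2Q+gRNA. FOS itself, the other partner of AP-1, differed by 0.27, EGR1 by 0.25 and MYC by 0.00 (0.18, 0.05 and -0.09 in the 7 libraries). EGR4 was under 0.4 CPM in every library, so its ratio is that of few counts. The median of the list in single libraries, relative to the no-guide mean of the line, was 0.313 and 0.073 in SA1Q+gRNA and 0.079 and 0.136 in SA2Q+gRNA, where the SA1Q libraries themselves lay at -0.071 and 0.071 and the SA2Q libraries at 0.022 and -0.022. Both SA2Q values with guide thus lay beyond the replicates without, and in SA1Q the value other than that of SA1Q+gRNA replicate 1 lay about level with the higher replicate.

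The hosts of small nucleolar RNAs, whose spliced transcripts are often removed by nonsense-mediated decay, gave a similar picture in SA2Q. Of 15 tested, 14 lay above 0, with a median of 0.14. At an unadjusted p under 0.05 there were 7, all higher, against 3.31% of all genes. These were SNHG12, SNHG15 (0.22), ZFAS1 (0.20), EPB41L4A-AS1 (0.24), SNHG16 (0.22), SNHG8 (0.22) and GAS5 (0.18). The line medians were 0.19 in SA2Q and 0.10 in SA1Q, the latter -0.01 without SA1Q+gRNA replicate 1, and 15 of 15 lay above 0 in the pooled fit to the 7 libraries (median 0.13). GAS5, a growth-arrest RNA, stood at 89.8 and 75.5 CPM in SA1Q and at 83.5 and 90.6 CPM in SA1Q+gRNA, so that the groups overlapped there. In SA2Q its values with guide, 104 and 91.6 CPM, lay above the 76.5 and 83.7 CPM without.

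**Figure D4:**
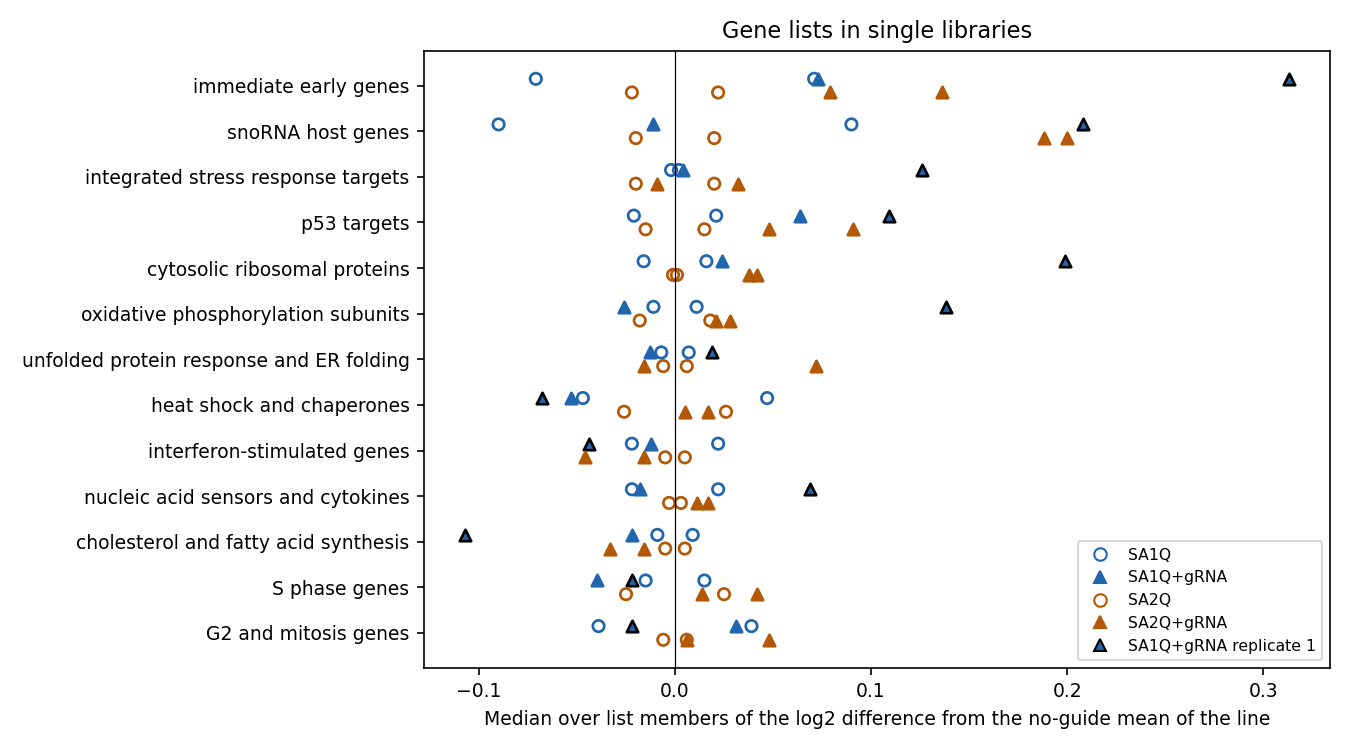
For 13 gene lists, each symbol is 1 library and its place on the horizontal axis is the median over the list's tested members of the log2 difference from the no-guide mean of the line; circles are libraries without guide and triangles with guide. SA1Q+gRNA replicate 1 (black edge) is the farthest to the right for immediate early genes (0.313), ribosomal proteins (0.199) and oxidative phosphorylation (0.138), while the interferon-stimulated genes stay between -0.046 and 0.022.

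Targets of the integrated stress response, through which cells slow translation and induce ATF4, were divided. Of 35 tested, 21 lay above 0, with a median of 0.02 (17 and 0.00 in the 7 libraries). At an unadjusted p under 0.05, 7 were higher and 1 lower, against 3.31% and 2.36% of all genes. ATF3, a stress-induced transcription factor, stood at 97.1 and 104 CPM in SA1Q and 126 and 112 CPM in SA1Q+gRNA, 95.3 and 84.7 CPM in SA2Q and 109 and 106 CPM in SA2Q+gRNA. DDIT3, which encodes the factor CHOP, stood at 23.2 and 25.9 CPM in SA1Q and 31.5 and 29.4 CPM in SA1Q+gRNA, 24.5 and 24.7 CPM in SA2Q and 30.8 and 27.4 CPM in SA2Q+gRNA. For both, the values with guide lay above those without, by 0.25 ± 0.06 for ATF3 and 0.27 ± 0.07 for DDIT3 (log2, SE; 0.21 and 0.25 in the 7 libraries). PPP1R15A, whose product reverses the translational block, differed by 0.38, CEBPB by 0.30, CHAC1 by 0.28, SESN2 by 0.22 and SLC3A2, an amino acid transporter subunit, by 0.21, which completes the 7. Without SA1Q+gRNA replicate 1 these values were 0.23, 0.16, 0.18, 0.14 and 0.12, in that order. The 1 lower was ALDH1L2 (-0.22), and ASNS, the asparagine synthetase, differed by -0.02 (-0.20 and -0.05 in the 7 libraries). DDIT3 lies antisense to MARS1 and is uncertain for the same reason as SNHG12.

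The p53 targets had 15 of 23 above 0 (18 in the 7 libraries) and a median of 0.05 in both. GADD45A (0.25), GADD45B (0.43), TP53I3 (0.25) and BBC3 (0.30) were higher at an unadjusted p under 0.05, against 3.31% of all genes. In the 7 libraries these differed by 0.17, 0.26, 0.19 and 0.15, in that order. Over all 8 libraries CDKN1A, the cell-cycle inhibitor that p53 induces, differed by 0.07 and MDM2, the negative regulator of p53, by -0.12 (0.02 and -0.02 in the 7). Of 28 S phase genes 14 lay above 0 with either set of libraries, and of 28 genes of G2 and mitosis 15 (18 in the 7 libraries). The unfolded protein response (14 of 22 above 0, median 0.02, and 0.01 in the 7 libraries), chaperones (5 of 15, -0.02 and -0.01) and cholesterol synthesis (12 of 31, -0.04 and -0.02) each held at most 1 gene at an unadjusted p under 0.05.

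Shorter transcripts tended to higher values in the pooled effect. Of 41 cytosolic ribosomal protein genes 38 lay above 0, with a median of 0.08. At an unadjusted p under 0.05, 6 of them were higher, against 3.31% of all genes. Of 33 subunits of oxidative phosphorylation 26 lay above 0, with a median of 0.03. In the 7 libraries these were 35 of 41 (0.04) and 18 of 33 (0.01). Over 13713 genes the Spearman correlation of the pooled change was -0.37 with transcript length and 0.48 with GC content, given as a description, since genes in a library share its depth and composition. In the 7 libraries these were -0.11 and 0.00. That 0.00 pools lines with trends of opposite sign. The correlation with GC content was 0.34 in SA1Q without SA1Q+gRNA replicate 1 (0.71 with it) and -0.27 in SA2Q. With length it was 0.07 in SA1Q without that library and -0.2 in SA2Q. The part of these trends in the line effects below was not tested. With an offset fitted to length and GC, 31 of the 41 ribosomal protein genes lay above 0 (median 0.02) and 15 of the 33 oxidative phosphorylation genes (-0.01). Under that offset 26 of 30 immediate early genes (0.11) and 13 of 15 snoRNA hosts (0.12) lay above 0.

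The guide effect was also taken in each line, from the same libraries. Within SA1Q 0 of 16092 genes were called, with 2197 (13.7%) at an unadjusted p under 0.05, and within SA2Q 0, with 377 (2.34%). Both lines shared 1 estimate of the spread in that fit, which holds SA1Q+gRNA replicate 1. Fits to each line's 4 libraries alone, added after seeing the data, reversed the order. They gave 934 of 15615 genes in SA1Q and 1571 of 15951 in SA2Q at that p. After removal of SA1Q+gRNA replicate 1, 16509 genes were tested, with the lone SA1Q+gRNA library assumed to vary like the other groups. HES4 rose in SA1Q (log2 0.52; edgeR adjusted p = 0.021; percent called 0.00606). In SA2Q 2 genes fell (percent called 0.0121), RNA45SN5 (-1.05) and the adhesion gene SDK2 (-0.59; both with an edgeR adjusted p of 0.0355). A fit to the 4 SA2Q libraries alone called 10 genes. SNHG1 rose (0.30) and the other 9 fell (log2 -1.05 to -0.33), among them RNA45SN5, KMT2D, NAV1, SDK2, CELSR2, ADGRL1 and MUC16. In the 4 SA1Q libraries alone 0 were called. The spread between replicates was larger in SA1Q than in SA2Q, as the SDs above show, and its part in these counts was not tested.

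A difference between the lines was tested as an interaction, and 0 of 16092 genes passed (1052, or 6.54%, at an unadjusted p under 0.05; smallest adjusted p 0.644, edgeR). DESeq2 also called 0, and without SA1Q+gRNA replicate 1 edgeR called 0 (1145, or 6.94%, at an unadjusted p under 0.05). The 5 genes of smallest p were CCNE2, ZSWIM9, DRD4, FBXL16 and TVP23B. CCNE2, the S phase cyclin E2, stood at 47.2 and 44.4 CPM in SA1Q and 32.7 and 39.1 CPM in SA1Q+gRNA, 41.2 and 39.6 CPM in SA2Q and 48.4 and 46.1 CPM in SA2Q+gRNA. Its values with guide were thus under those without in SA1Q and over them in SA2Q, and the lines differed by 0.58 (log2), which did not pass the adjusted threshold. Over 13713 genes the effects in the 2 lines had a Pearson correlation of 0.03 and a Spearman correlation of -0.02, as a description across genes, and 47.2% had the same sign. In the 7 libraries these were -0.02, -0.07 and 46.5%.

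**Figure D5:**
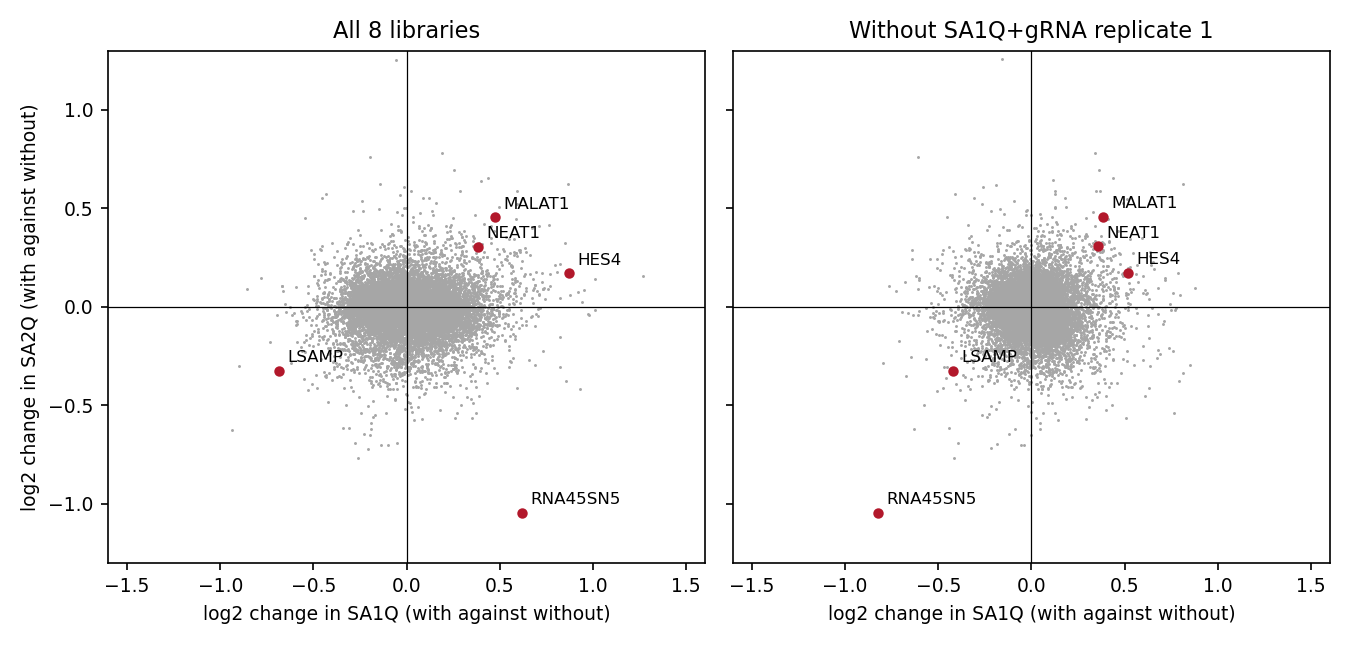
Each grey point is a gene of at least 1 CPM, with the log2 change with guide in SA1Q on the horizontal axis and in SA2Q on the vertical axis, over 8 libraries on the left and without SA1Q+gRNA replicate 1 on the right. The cloud has no slope (Pearson 0.03 and -0.02), NEAT1 and MALAT1 lie to the upper right in both panels, and RNA45SN5 crosses from 0.62 to -0.82 on the SA1Q axis.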

How the data were processed

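RNA sequencing was analysed in 8 libraries of 293 Flip-In T-REx lines, 2 per group, grouped by the sample titles. Per the labels' protocols, RNA was treated with DNase, selected for poly(A) and made into stranded paired-end libraries. STAR 2.4.2a, Trim Galore and the build hg19 appear in the submitters' processing notes without a role. The counter, its strand setting and its treatment of multiple matches: not given in the sources used here. The deposited files hold whole-number fragment counts for 46830 transcript entries and, per the file headers, FPKM values scaled by the authors to size and library total, which served only in an alternative. A deposited column of fragments scaled by the authors to the library total (FPM) was used only to choose transcripts.

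Accessions were matched to symbols with a RefSeq table (GRCh38.p14, names only) and then GENCODE, naming 98.6% of them. Unnamed entries (0.81% of the counts) and entries under 200 nucleotides stayed out of library sizes and tests. Each gene was represented by the transcript of highest mean level over the 14 files, which gave 22395 genes. Positions follow the files (hg19) and count from 1.

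The main test was edgeR 4.0.16, run in R 4.3.3 on the counts (filterByExpr with a minimum count of 10, TMM, quasi-likelihood test, two-sided, line as covariate, Benjamini-Hochberg adjustment over all genes tested, threshold 0.05). Line effects and their difference came from a fit with a term for guide in each line. Intervals are 95% intervals from the same fit. The fitting code was tested on simulated data. Alternatives were DESeq2 1.42.0, limma 3.58.1 (voom, sample weights, and FPKM with pseudocounts of 0.1 and 1), other scalings and filters, all 14 libraries, replicate blocks, a length and GC offset and leaving out each library.

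Named genes were the 6 of smallest p each way with at least 1 CPM on average in the higher arm, 8 each way without SA1Q+gRNA replicate 1, 5 for the interaction, 6 fixed genes and the 2 of smallest p in each list. Members of lists outside that rule were chosen after their values were seen. The comparison, lists and tests were chosen with earlier results of these data known. P-values measure the spread between these libraries. Some results are not reported here.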

Additional observations from a re-analysis of the deposited data

Results flagged for a closer look

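Among 164 groups of 4 libraries (82 named genes, with and without guide), 8 held a library whose gap to the nearest other, as a share of the range, was above Dixon's 95% critical value. Chance would give 8 if the 4 libraries of a group were alike. Each group mixes 2 lines, and many of the genes were named by their p in these libraries, so that number is only a rough guide. Of the 8 flagged, 5 were SA1Q+gRNA replicate 1. It was the highest of the 4 libraries with guide for RNA45SN5 (12100 CPM, share 0.942), for the growth-arrest gene GADD45A (86.7 CPM, 0.891), for CDC20, an activator of the anaphase-promoting complex (330 CPM, 0.919), and for COL6A3, a collagen VI chain (2.25 CPM, 0.925). It was the lowest for ELAVL2, a neuronal RNA-binding protein (17 CPM, 0.946). Among the libraries without guide, SA1Q replicate 1 was the highest for PDK1, a kinase that inhibits pyruvate dehydrogenase (44.3 CPM, 0.952), and for POLE2, a DNA polymerase subunit (26.5 CPM, 0.868). SA2Q replicate 1 was the lowest for COL6A3 (0.105 CPM, 0.868), a level of few counts. Outside the comparison, COL6A3 stood at 2.54 and 0.228 CPM in the empty-vector libraries without guide (scaled over all 14 libraries). Its high level was thus not particular to SA1Q+gRNA replicate 1.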

How the results depend on the processing

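With all 8 libraries 0 genes were called. DESeq2 called 1, a length and GC offset called 1 (both NEAT1), and that offset with the replicate block called 4 (NEAT1, MALAT1 and HES4 higher, NDRG1 lower). Leaving out each library in turn gave 0 to 1, the 1 without SA1Q+gRNA replicate 1. DESeq2 scaling, limma-voom with and without sample weights, no filter, all 14 libraries and FPKM with either pseudocount gave 0. Same-numbered libraries did not deviate together (correlations -0.39 to 0.17), so the numbers were not taken to pair samples; the replicate block gave 0 called genes (788 at an unadjusted p under 0.05), a block by line and number 0 (730), and the same with numbers crossed in SA1Q, added after seeing the data, 0 (1078).

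Without SA1Q+gRNA replicate 1 the count was 1. DESeq2 gave 4, limma-voom 0 and no filter 7, and leaving out 1 further library gave 0 to 29. It was 29 without SA1Q replicate 1 and 0 without any of SA1Q replicate 2, both SA2Q and both SA2Q+gRNA libraries; the cause was not tested. Within SA1Q the count went from 0 to 1 without SA1Q+gRNA replicate 1, and within SA2Q from 0 to 2, or 10 from its 4 libraries alone, the last 2 added after seeing the data.

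Of 1722 values of named genes under 21 alternatives, 1671 kept direction and call, 7 became called and 44 turned sign, in 9 genes with pooled changes of -0.21 to 0.14. With limma-voom FBXL16 was -0.00197 and MGMT -0.0179. With sample weights CCNE2 was 0.0606, ZSWIM9 -0.0569, FBXL16 -0.106, TVP23B 0.068, ADAR -0.0129, MGMT -0.12, GAPDH -0.0223 and MT2A -0.00891. With FPKM + 0.1 FBXL16 was -0.0116 and MGMT -0.0152, and with FPKM + 1 -0.0108 and -0.0149. With the offset CCNE2 was 0.0139, FBXL16 -0.0634, TVP23B 0.00778, MGMT -0.0708, GAPDH -0.0417 and MT2A -0.0203, and with offset and block 0.0138, -0.0643, 0.00863, -0.0692, -0.0417 and -0.0201. Leaving out each library, RNA45SN5 ran from -0.957 to 0.0402, CCNE2 from -0.134 to 0.0478, ZSWIM9 from -0.0233 to 0.256, FBXL16 from -0.0779 to 0.0959, TVP23B from -0.104 to 0.0443, ADAR from -0.0295 to 0.0832, MGMT from -0.136 to 0.0901, GAPDH from -0.0323 to 0.0772 and MT2A from -0.0196 to 0.203. Depth limits genes under 1 CPM most.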

Other observations

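The 6 libraries outside the comparison give further levels of the named transcripts, scaled over all 14 libraries. They are 2 of the empty-vector line without guide (ctrl) and 2 each of the lines with the unchanged enzymes and guide (SA1+gRNA, SA2+gRNA), none of which was sequenced both with and without guide, so no guide effect can be taken from them. Every count in SA1+gRNA replicate 2 is an even number, for which no reason is known here. NEAT1 stood at 37.2 and 55.6 CPM in ctrl, 50.3 and 46 CPM in SA1+gRNA and 56.1 and 50.5 CPM in SA2+gRNA, so the 2 ctrl libraries lay farther apart than the means with and without guide in either Q line. MALAT1 stood at 8.89 and 12.6 CPM in ctrl, 12.1 and 14.9 CPM in SA1+gRNA and 12.1 and 11.7 CPM in SA2+gRNA. SNHG12 stood at 22.9 and 22.4 CPM in ctrl, 19.6 and 18.9 CPM in SA1+gRNA and 16.4 and 18 CPM in SA2+gRNA. Both ctrl values of SNHG12 lay above those of every library with guide except SA1Q+gRNA replicate 1 (22.6 CPM). HES4 stood at 154 and 108 CPM in ctrl, 99.4 and 123 CPM in SA1+gRNA and 144 and 138 CPM in SA2+gRNA.

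LSAMP stood at 8.81 and 8.86 CPM in ctrl, 5.32 and 5.41 CPM in SA1+gRNA and 3.65 and 5.07 CPM in SA2+gRNA. All 8 libraries with guide (3.54 to 6.07 CPM) lay under all 6 without (6.81 to 8.86 CPM). Of 15879 genes, 8 (0.0504%) had all 8 libraries with guide above all 6 without, among them RALY-AS1, SERTAD4-AS1, SNHG9, TMEM161B-DT, MRPL33, RPL36 and OR2AG2, the last under 0.3 CPM in every library. A further 5 (0.0315%) had them below, namely LSAMP, HYDIN, JRK, SLC19A3 and TMEM132B. SNHG9, another snoRNA host, stood at 8.19 to 10.2 CPM with guide and 5.39 to 7.57 CPM without. These genes were picked after their values were seen, line and guide are not balanced over the 14 libraries, and no test was made.

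RNA45SN5 stood at 4120 and 6360 CPM in ctrl, 2740 and 2370 CPM in SA1+gRNA and 4150 and 8540 CPM in SA2+gRNA, so libraries with guide lie at both ends of its range. NDRG1, whose values with guide lay under those without in each Q line, stood at 119 to 185 CPM in SA1+gRNA and SA2+gRNA and at 150 and 133 CPM in ctrl. Of these 6 libraries, 5 lay above all 8 Q libraries (70.2 to 124 CPM).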
